A study of Mus musculus with 15 samples.

Results

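The genes described here are the potassium channel genes of mouse astrocytes, taken as every row of the deposited count tables whose symbol begins with Kcn, leaving out symbols that end in os and pseudogene symbols that contain -ps. The rule gave 93 of the 25748 symbols, of which 90 are annotated as protein coding and 3 as antisense RNAs. They were counted in primary astrocytes of mouse brain, from polyadenylated RNA, in 15 libraries that form 3 groups of 5. One group had been given ginsenoside Rg1, a saponin of ginseng, at 80 µM over 12 h, followed by lipopolysaccharide (LPS), a component of the bacterial outer membrane, at 1 µg/mL over 6 to 8 h. The next group, labelled SCI by the submitters, had been given LPS alone at 1 µg/mL over 6 to 8 h. The control group had been given neither. No group with Rg1 and without LPS was analysed here. No source used here states if the replicates of a group are separate cultures or animals. P-values therefore measure the spread between these libraries, which may be technical.

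Potassium channels let potassium ions leave or enter a cell along their gradient and so set its membrane potential. Astrocytes are known for a large resting potassium conductance, carried mainly by the inward rectifier Kir4.1, the product of Kcnj10, with which they take up the potassium that active neurons release. The family holds inward rectifiers (Kcnj), 2-pore-domain leak channels (Kcnk, also called K2P) and voltage-gated channels (Kcna to Kcnd, Kcnf to Kcnh, Kcnq, Kcns, Kcnv). It also holds channels opened by calcium or sodium inside the cell (Kcnm, Kcnn, Kcnt), with which Kcnu1 is only classed here. Auxiliary subunits (Kcnab, Kcne, Kcnip, Kcnmb) change the gating or transport of the pore-forming ones.

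The libraries held 34.2 to 41.8 M counts each, so that 3 counts correspond to 0.0715 to 0.0922 counts per M of the scaled total (CPM). The astrocyte identity was checked on 10 markers, whose summed level was 6322 to 9909 CPM in Rg1 plus LPS, 5816 to 10082 CPM in LPS and 8973 to 11449 CPM in control libraries. Under LPS, 6 of these 10 markers were lower than in control. In Rg1 plus LPS, 4 of the 10 were higher and 1 lower than in LPS. Summed microglia and macrophage markers, 9 genes, were at 27.9 to 62.8 CPM in Rg1 plus LPS, 44.1 to 79.6 CPM in LPS and 36.7 to 81.9 CPM in control libraries. Tmem119 was the largest part, with means of 35.97, 28.44 and 30.7 CPM in this order. Between Rg1 plus LPS and LPS it was not called, at a log2 fold change of 0.34 ± 0.25. Csf1r, Itgam, Ptprc, Tyrobp and Ctss were lower there, by -1.42 to -2.93, and Aif1, P2ry12 and Cx3cr1 were not called. Overlapping sums therefore do not show a similar level of each marker. Markers of other cell types were present as well. The 10 neuron markers summed to 470 to 686 CPM in Rg1 plus LPS, 517 to 670 CPM in LPS and 576 to 609 CPM in control libraries, mostly from Stmn2, Map2 and Tubb3, while Rbfox3, Snap25, Slc17a6, Gad2 and Elavl4 were under 0.1 CPM on average. Pericyte and smooth muscle markers summed to 2176 to 3917 CPM in Rg1 plus LPS, 2730 to 5332 CPM in LPS and 2671 to 3928 CPM in control libraries, mostly from Acta2 and Tagln, with Higd1b under 0.1 CPM. Oligodendrocyte and precursor markers summed to 393 to 531 CPM in Rg1 plus LPS, 398 to 493 CPM in LPS and 437 to 533 CPM in control libraries. Choroid plexus markers summed to 44.5 to 229 CPM in Rg1 plus LPS, 103 to 364 CPM in LPS and 176 to 356 CPM in control libraries, mostly from Aqp1, while Ttr, Kl, Prlr and Slc4a5 were under 0.1 CPM. Summed fibroblast and meningeal markers were at 2265 to 6616 CPM in Rg1 plus LPS, 4751 to 6632 CPM in LPS and 4605 to 6052 CPM in control libraries, and summed ependymal markers at 102 to 161, 67.4 to 120 and 111 to 144 CPM. Of the ependymal markers, 4 of 8 tested were higher in Rg1 plus LPS than in LPS and 5 of 8 lower in LPS than in control. The same counts were 4 and 6 of 10 for astrocyte markers and 2 and 1 of 5 tested for choroid plexus markers. Of all genes tested, 22.2% and 9.82% were. These are the directions of Kcnj16, Kcns1 and Kcne4, and the part of these cell types in those results was not tested. No listed marker was at 0 in all libraries. In bulk RNA such as this, fewer cells of a type and less RNA per cell cannot be told apart.

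Of the 93 genes, 58 had enough counts for a test and 35 did not. By class, tests were possible for 8 of 14 inward rectifiers, 7 of 13 K2P channels, 24 of 38 voltage-gated channels, 7 of 8 calcium- or sodium-activated channels, 11 of 17 auxiliary subunits and 1 of 3 long noncoding RNAs. None of the 35 was at 0 in every library. There were 9 genes with 3 counts or fewer in each group of 5 libraries, namely Kcne3, Kcnh6, Kcnh8, Kcnj5, Kcnj8, Kcnk9, Kcnk15, Kcnk16 and Kcnv2. A further 26 had more than 3 counts in at least 1 group and still failed the filter, among them Kcna3, Kcna7, Kcnb2, Kcne1, Kcne2, Kcng1, Kcng2, Kcnh3, Kcnh4, Kcnh7, Kcnip2, Kcnj3, Kcnj6, Kcnj9, Kcnj11, Kcnk4, Kcnk7, Kcnk12, Kcnmb2, Kcnmb4os1, Kcnmb4os2, Kcnq1, Kcnrg, Kcnu1 and Kcnv1. Even the better counted of these stayed low. Kcnk7 summed to 53 counts in Rg1 plus LPS, 20 in LPS and 39 in control libraries, and Kcnh4 to 13 counts in Rg1 plus LPS, 50 in LPS and 25 in control libraries. Kcna3, the delayed rectifier best known from lymphocytes and microglia, had 4 counts in Rg1 plus LPS, 21 in LPS and 4 in control libraries over 5 libraries each. No change is given for any of these 35 genes.

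The potassium channel RNA of these cells was dominated by Kcnj10. To compare genes with each other, levels are given as the FPKM the authors deposited, that is counts per gene length and per library total. Kcnj10 made up 60.2 ± 2.11% of the summed FPKM of all 93 genes in Rg1 plus LPS, 66.4 ± 2.09% in LPS and 67.7 ± 1.29% in control libraries (SD, n = 5 each). The mean level of Kcnj10 over all libraries was 162 FPKM, followed at a distance by the mechanically gated K2P channel Kcnk2 at 20.6 FPKM, the auxiliary subunit Kcne1l at 17.0 FPKM and the A-type voltage-gated channel Kcnd3 at 10.3 FPKM. These 4 genes were the only ones at 10 FPKM or more, and 18 genes reached 1 FPKM. The gene length behind the FPKM values was far above the summed exons of the GENCODE M21 annotation for some genes, 164773 against 3627 bases for Kcnip4, 98276 against 5152 bases for Kcnd2 and 17750 against 3356 bases for Kcng3. A longer length lowers the FPKM level by construction. Whether reads outside the annotated exons enter the counts of such genes was not tested.

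**Figure D1:**
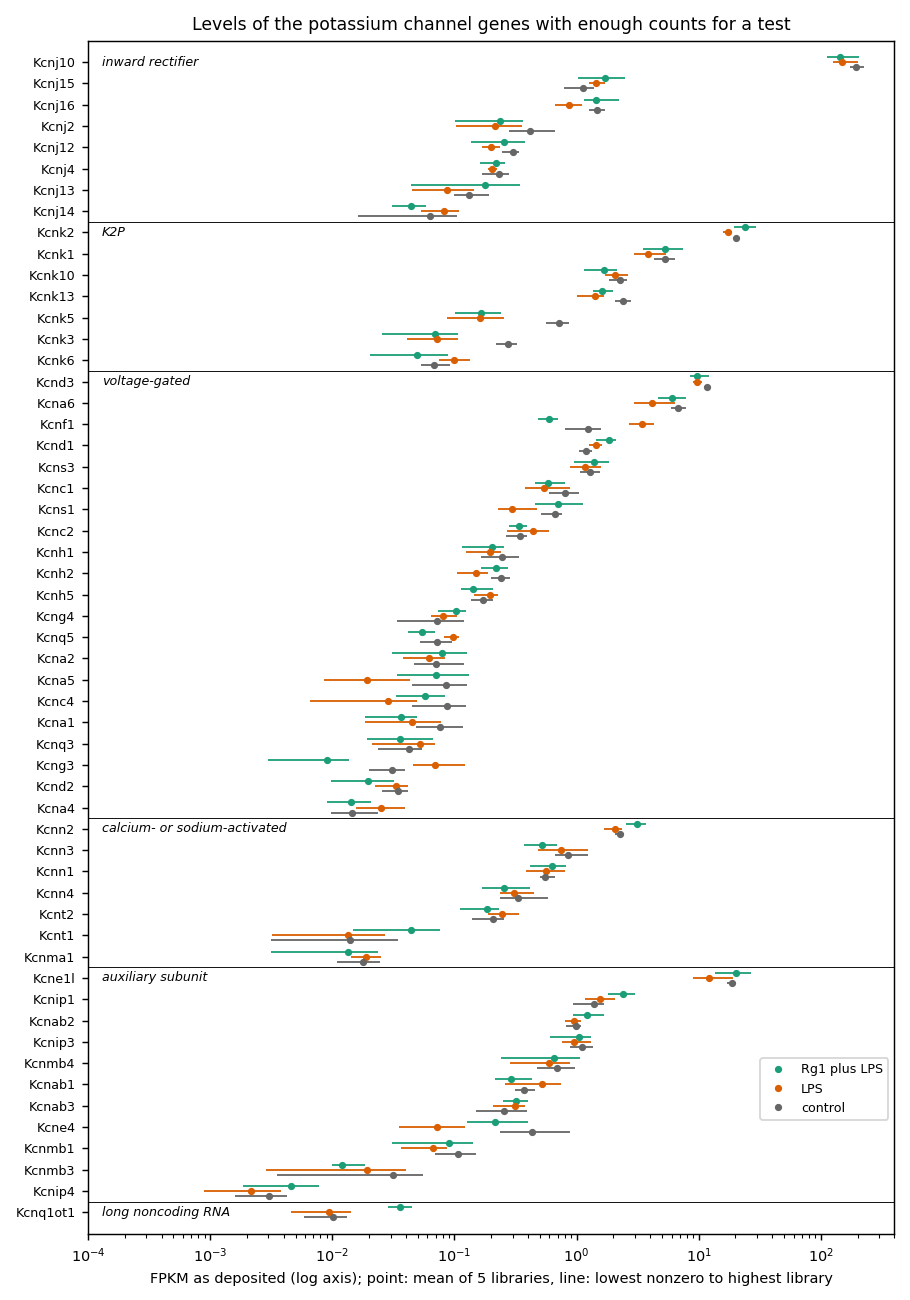
Deposited FPKM (log axis) of 55 potassium channel genes with enough counts for a test, by class and, within a class, in order of mean level. Points are means of 5 libraries and lines run from the lowest nonzero to the highest library, for Rg1 plus LPS, LPS and control. Kcnj10 stands at the top with a mean of 162 FPKM over all libraries, and 4 genes reach 10 FPKM.

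Changes between groups were tested with edgeR's quasi-likelihood F-test on the counts of all 15 libraries, and genes with an adjusted p under 0.05 over all 15362 genes tested are called changed. Of the 58 genes, 19 (32.8%) changed between Rg1 plus LPS and LPS, 10 being higher and 9 lower, against 45.4% of all genes tested (22.2% higher and 23.2% lower). Between LPS and control 11 (19.0%) changed, 2 being higher and 9 lower, against 23.7% of all genes (13.8% higher and 9.82% lower). Between Rg1 plus LPS and control 17 (29.3%) changed, 5 being higher and 12 lower, against 36.9% of all genes (18.8% higher and 18.1% lower). The share of channel genes called was below that of all genes in each comparison, and this difference was not tested. The ranges of the compared groups did not overlap for 6 of the 58 genes (10.3%) in Rg1 plus LPS against LPS, 9 (15.5%) in LPS against control and 12 (20.7%) in Rg1 plus LPS against control, beside 27.5%, 20.4% and 26.2% of all genes. Calls of at least 2-fold went the other way. They numbered 7 of the 58 genes in each comparison, a larger share than the 8.16%, 4.97% and 5.06% of all genes, and this was not tested either. The median log2 fold change of the 58 genes was 0.04 in Rg1 plus LPS against LPS, -0.14 in LPS against control and -0.23 in Rg1 plus LPS against control. For all genes tested it was 0.03, -0.003 and 0.01. With scaling by library size alone, where the median of all genes moved to 0.14 for Rg1 plus LPS against LPS, the split was 12 higher and 6 lower in place of 10 and 9. For Rg1 plus LPS against control it was 7 higher and 9 lower in place of 5 and 12. In all, 31 genes changed in some comparison and 27 in none. Since every pair of comparisons shares a group of libraries, an agreement or opposition of their fold changes is no independent evidence, and each gene is therefore described by its values in the 3 groups.

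**Figure D2:**
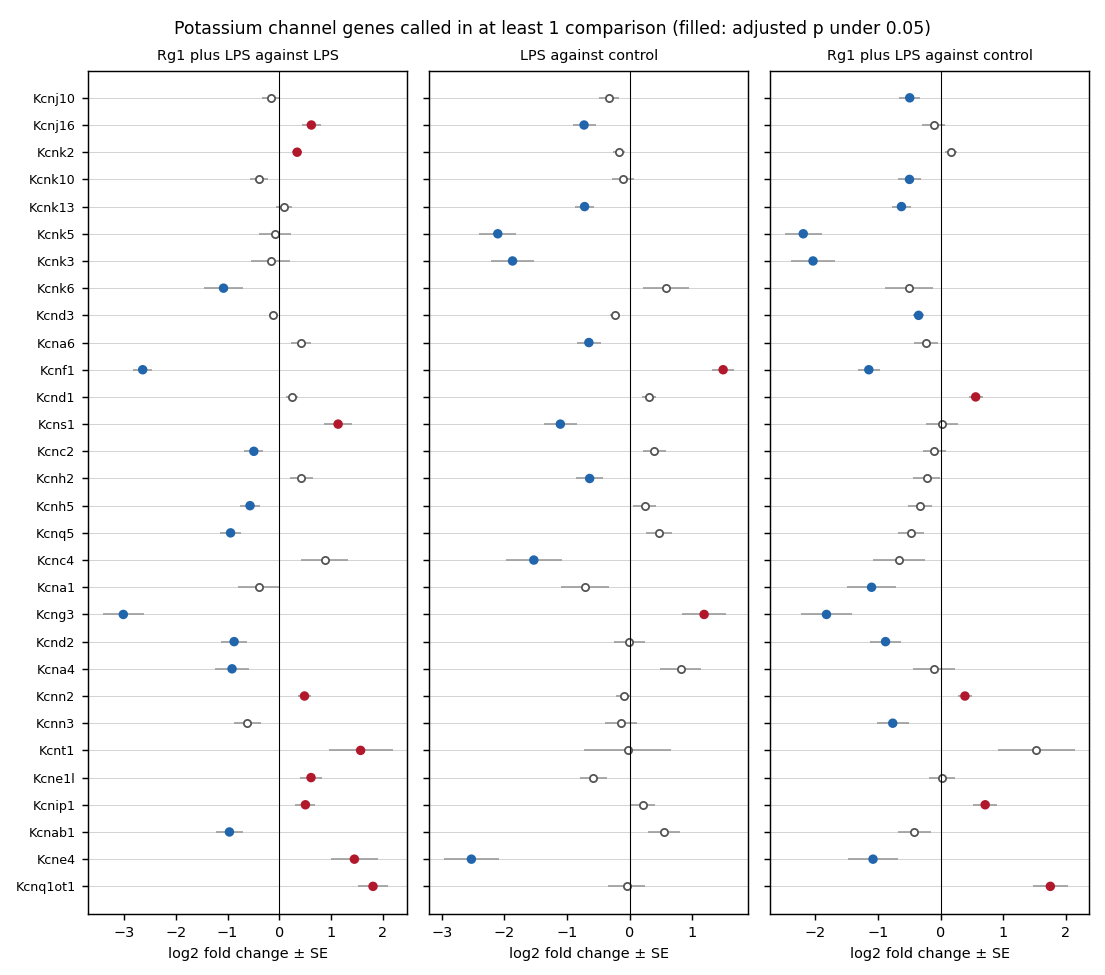
Log2 fold changes with SE of 30 potassium channel genes changed in at least 1 comparison, in Rg1 plus LPS against LPS, LPS against control and Rg1 plus LPS against control. Filled points mark an adjusted p under 0.05 in edgeR. Kcnf1 and Kcng3 lie far to the left for Rg1 plus LPS against LPS and to the right for LPS against control, and the K2P genes Kcnk3 and Kcnk5 lie to the left in both comparisons with control.

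Among the inward rectifiers, Kcnj10 (chr1:172341210-172374085, plus strand, GRCm38) had 752, 1008, 1360, 770 and 985 CPM in Rg1 plus LPS, 920, 1184, 1492, 893 and 973 CPM in LPS and 1251, 1438, 1336, 1591 and 1246 CPM in control libraries. All control libraries lay at the upper end, but replicate 3 of Rg1 plus LPS and of LPS lay within their range, so the groups overlapped. Kcnj10 was lower in Rg1 plus LPS than in control by a log2 fold change of -0.49 ± 0.16 (SE), with an adjusted p of 0.0271 in edgeR. The differences of -0.16 ± 0.16 for Rg1 plus LPS against LPS (adjusted p = 0.44) and of -0.33 ± 0.16 for LPS against control (adjusted p = 0.159) did not pass. The call against control was lost on leaving out replicate 1, 4 or 5 of Rg1 plus LPS (adjusted p = 0.0619, 0.0761 and 0.0523) or replicate 2 or 4 of control (0.0543 and 0.0723). LPS against control passed without LPS replicate 3 (-0.48, adjusted p = 0.027) and in none of 9 other settings of scaling, filter, tool or samples fitted. The call for Rg1 plus LPS against control was also lost under 4 of these 9 settings, with an adjusted p of up to 0.14. Outside these 9, LPS against control passed with replicate number as a block (adjusted p = 0.044) and with block and gene length offset (0.0328). It also passed without LPS replicates 2 and 3 (-0.57, adjusted p = 0.0185), a fit chosen after seeing the data. Replicate 3 of each LPS-treated group, where Kcnj10 was highest, also had the highest summed astrocyte markers of its group, 9909 CPM in Rg1 plus LPS and 10082 CPM in LPS. Of the 10 astrocyte markers, 5 fell in Rg1 plus LPS against control, where 18.1% of all genes tested fell. The part of this in the Kcnj10 result was not tested.

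Kcnj16 (chr11:110968033-111027968, plus strand) encodes a subunit that is silent alone and makes the pH-sensitive heteromer with the Kcnj10 product. It had 5.36, 5.26, 8.97, 5.06 and 4.89 CPM in Rg1 plus LPS, 2.98, 4.53, 4.98, 3.25 and 3.56 CPM in LPS and 5.50, 6.99, 6.33, 7.35 and 5.77 CPM in control libraries. The LPS libraries all lay below the control libraries, while Rg1 plus LPS overlapped with both. Kcnj16 rose in Rg1 plus LPS against LPS by 0.62 ± 0.18 (log2, adjusted p = 0.0119) and fell in LPS against control by 0.73 on the log2 scale (SE 0.18, adjusted p = 0.00857). Rg1 plus LPS against control gave -0.11 ± 0.18 (adjusted p = 0.661). Without Rg1 plus LPS replicate 3, the highest library, the rise against LPS was 0.43 and still passed.

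The other 6 inward rectifiers with enough counts changed in no comparison. They were Kcnj2, Kcnj4 and Kcnj12, strong rectifiers of excitable cells, and Kcnj13, Kcnj14 and Kcnj15, with mean levels between 0.21 CPM for Kcnj14 and 9.13 CPM for Kcnj15. Their log2 fold changes ran between -0.99 for Kcnj14 and 0.91 for Kcnj13 in Rg1 plus LPS against LPS, between -0.92 for Kcnj2 and 0.42 for Kcnj14 in LPS against control, and between -0.87 for Kcnj2 and 0.54 for Kcnj15 in Rg1 plus LPS against control. Kcnj2 averaged 1.25 ± 0.669 CPM in Rg1 plus LPS, 1.22 ± 0.617 CPM in LPS and 2.29 ± 0.842 CPM in control libraries (SD, n = 5 each), a spread that the test did not separate.

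Among the K2P leak channels, Kcnk3, Kcnk5 and Kcnk13 were lower than control in both LPS-treated groups. Kcnk5 (chr14:20140057-20181809, minus strand), whose product opens in alkaline surroundings and is known from kidney epithelium, had 0.990, 0.720, 0.692, 0.585 and 0.429 CPM in Rg1 plus LPS, 0.430, 0.624, 0.399, 1.02 and 1.15 CPM in LPS and 3.77, 2.60, 3.13, 2.46 and 3.76 CPM in control libraries. Every control library lay above every LPS-treated library, with and without Rg1. The fall was -2.20 ± 0.30 on the log2 scale in Rg1 plus LPS against control (adjusted p = 3.4e-05). It was -2.11 ± 0.30 in LPS against control (adjusted p = 5.6e-05). Rg1 plus LPS against LPS gave -0.09 ± 0.31 (adjusted p = 0.836). Both calls against control held in all other settings and all leave-one-out fits. The 250 bases before the RefSeq start of Kcnk5 (GRCm38.p6, chr14:20181783-20182032, minus strand) are shown because it had the smallest adjusted p of the set in Rg1 plus LPS against control. Capitals mark CG dinucleotides, of which there were 19, against a median of 6 (quartiles 2 and 16) over 32851 promoters.
Kcnk5: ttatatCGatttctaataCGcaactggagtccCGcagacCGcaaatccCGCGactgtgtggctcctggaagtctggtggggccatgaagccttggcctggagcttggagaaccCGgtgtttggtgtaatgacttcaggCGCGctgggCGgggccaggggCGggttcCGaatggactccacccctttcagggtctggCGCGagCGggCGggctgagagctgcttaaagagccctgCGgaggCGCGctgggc

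Kcnk3 (chr5:30588170-30625271, plus strand), the acid-sensitive leak channel of the TASK group, behaved much like Kcnk5 at a lower level. It had 0.386, 0.372, 0.173, 0.239 and 0.0954 CPM in Rg1 plus LPS, 0.161, 0.271, 0.369, 0.198 and 0.426 CPM in LPS and 1.19, 0.840, 0.855, 1.11 and 1.26 CPM in control libraries. Again no LPS-treated library reached the lowest control library. Kcnk3 fell by 2.04 on the log2 scale in Rg1 plus LPS against control (SE 0.35, adjusted p = 0.000298) and by 1.87 in LPS against control (SE 0.35, adjusted p = 0.000882). Rg1 plus LPS and LPS differed by -0.17 ± 0.38 (adjusted p = 0.745).

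Kcnk13 (chr12:99964499-100062682, plus strand), the halothane-inhibited channel known as the main resting potassium channel of microglia, had 10.8, 8.96, 7.76, 11.7 and 8.37 CPM in Rg1 plus LPS, 10.6, 7.43, 6.48, 9.54 and 10.5 CPM in LPS and 15.9, 12.5, 15.0, 12.7 and 17.3 CPM in control libraries. The control libraries lay above all others. Its log2 fold change was -0.63 ± 0.15 in Rg1 plus LPS against control (adjusted p = 0.00415) and -0.72 ± 0.15 for LPS against control (adjusted p = 0.00242). It was 0.09 ± 0.15 for Rg1 plus LPS against LPS (adjusted p = 0.644). Of the 9 microglia and macrophage markers none changed between LPS and control in edgeR (1 at an unadjusted p under 0.05, and 1, higher, in DESeq2), and 5 were lower in Rg1 plus LPS than in LPS, among them Csf1r, Itgam and Ptprc. Of all genes tested, 23.7% changed between LPS and control and 23.2% were lower in Rg1 plus LPS than in LPS. The part of these markers in the Kcnk13 levels was not tested. Without LPS replicates 2 and 3, the LPS libraries with the highest sums of these markers, the sign of the small difference between Rg1 plus LPS and LPS turned to -0.11. These 2 libraries also had the highest LPS sums of other lists, among them astrocyte (7736 and 10082 CPM), choroid plexus (208 and 364 CPM) and ependymal markers (87.4 and 120 CPM). Leaving them out therefore does not single out microglia.

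The remaining K2P changes were smaller or were lost on leaving out some libraries. Kcnk2, the mechanically and lipid gated TREK channel that is the second most abundant gene of the set, rose by 0.34 ± 0.09 (log2, adjusted p = 0.00656) in Rg1 plus LPS, at 106 ± 17.0 CPM, against LPS, at 84.0 ± 6.56 CPM. Control libraries averaged 94.7 ± 5.42 CPM, and neither treated group passed the test against them. Kcnk6, a leak channel known to let potassium out of macrophages during inflammasome activation, was lower in Rg1 plus LPS than in LPS by -1.08 ± 0.37 (adjusted p = 0.0252), a call lost without replicate 1 or 4 of Rg1 plus LPS or replicate 1 or 3 of LPS (adjusted p up to 0.0681). Kcnk10, a relative of Kcnk2, was lower in Rg1 plus LPS than in control by -0.50 ± 0.18 (adjusted p = 0.0381). That call was lost without replicate 1, 4 or 5 of Rg1 plus LPS or replicate 2, 3 or 4 of control (adjusted p up to 0.101). Settings other than leaving out 1 library, a replicate block and the fit without LPS replicates 2 and 3 among them, were tried as well. The Kcnk10 call was lost in 5 of 12 of them (adjusted p up to 0.215) and the Kcnk6 call in 4 of 11 (up to 0.0774). Kcnk1, a weak inward rectifier that dimerises with other leak channels, averaged 27.7 ± 7.94 CPM in Rg1 plus LPS, 21.7 ± 5.53 CPM in LPS and 28.9 ± 5.16 CPM in control libraries and changed in no comparison. In all, none of the 7 K2P genes tested was higher than control in either treated group (0 of 7 each). This held in edgeR, in DESeq2 and at an unadjusted p under 0.05. Of all genes tested, edgeR called 13.8% higher under LPS alone and 18.8% higher after Rg1 and LPS. With only 7 genes, the absence of higher calls was not tested against these shares. Lower were 3 genes in LPS (Kcnk3, Kcnk5 and Kcnk13) and 4 in Rg1 plus LPS (those and Kcnk10), where 9.82% and 18.1% of all genes tested were lower.

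The largest changes of the set between Rg1 plus LPS and LPS were in electrically silent voltage-gated subunits. These form no channel alone and join the pore-forming Kcnb subunits, whose gating they change. Kcnf1 (chr12:17172100-17176888, minus strand) had 2.05, 3.03, 2.60, 2.34 and 2.60 CPM in Rg1 plus LPS, 16.4, 14.7, 12.7, 14.7 and 20.2 CPM in LPS and 6.02, 4.80, 6.33, 3.60 and 7.20 CPM in control libraries. The groups were fully separate, with LPS highest, control between and Rg1 plus LPS lowest. Kcnf1 differed by -2.64 ± 0.18 in Rg1 plus LPS against LPS (adjusted p = 6.8e-09), by 1.49 ± 0.17 in LPS against control (adjusted p = 5.85e-06) and by -1.15 ± 0.18 in Rg1 plus LPS against control (adjusted p = 0.000119), all on the log2 scale. All 3 calls held in every other setting and leave-one-out fit.

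Kcng3 (chr17:83585957-83631895, minus strand), another silent partner of Kcnb channels, followed the same order at a lower level. It had 0.0725, 0.223, 0.0494, 0.186 and 0.238 CPM in Rg1 plus LPS, 1.08, 2.22, 1.23, 0.819 and 0.977 CPM in LPS and 0.491, 0.705, 0.534, 0.673 and 0.364 CPM in control libraries. No library of any group reached into another group, though replicates 1 and 3 of Rg1 plus LPS rest on 3 counts or fewer. Kcng3 differed by -3.01 ± 0.40 in Rg1 plus LPS against LPS (adjusted p = 1.55e-05), by 1.19 ± 0.35 in LPS against control (adjusted p = 0.0219) and by -1.82 ± 0.41 in Rg1 plus LPS against control (adjusted p = 0.00257). The rise under LPS was lost without LPS replicate 2 (0.89, adjusted p = 0.078), control replicate 3 (adjusted p = 0.0507) or control replicate 5 (adjusted p = 0.0603). It was also lost without LPS replicates 2 and 3 together (0.79, adjusted p = 0.137). Of 7 endothelial markers tested, 2 were lower in Rg1 plus LPS than in LPS, where 23.2% of all genes were. In LPS against control 1 was higher (13.8% of all genes), and in Rg1 plus LPS against control 3 were lower (18.1% of all genes). Their list of 10 summed to 160 to 249 CPM in Rg1 plus LPS, 231 to 279 CPM in LPS and 245 to 289 CPM in control libraries, with Cldn5 and Emcn under 0.1 CPM, and its part in the levels of Kcnf1 and Kcng3 was not tested.

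The bases before Kcnf1 and Kcng3 are shown side by side because these 2 genes were the only ones of the set that edgeR called higher in LPS than in control, and they are unlike in composition. DESeq2 called Kcnd1 higher as well (0.31, adjusted p = 0.0316). The 250 bases before the RefSeq start of Kcnf1 (GRCm38.p6, chr12:17176889-17177138, minus strand) held 51.2% G and C and 1 CG dinucleotide, and those before Kcng3 (chr17:83631896-83632145, minus strand) held 82.4% G and C and 41 CG dinucleotides, marked in capitals. On either strand, neither held the NF-kB letters searched for (a run of 3 G, any 2 bases, 3 T and 2 C), TGANTCA searched for AP-1 or TGACGTCA searched for CRE, which 1.41%, 6.75% and 1.55% of the 32851 promoters held. Among 93 promoters of 68 genes of the set that the RefSeq table holds, none had the NF-kB or CRE letters, and 4 had the AP-1 letters, those of Kcne3, Kcnip3, Kcnip4 and Kcnk2.
Kcnf1: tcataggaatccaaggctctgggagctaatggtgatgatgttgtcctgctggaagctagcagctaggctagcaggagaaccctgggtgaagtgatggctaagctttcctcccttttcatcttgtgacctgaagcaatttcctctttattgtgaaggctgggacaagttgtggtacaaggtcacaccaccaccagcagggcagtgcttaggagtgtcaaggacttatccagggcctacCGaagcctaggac
Kcng3: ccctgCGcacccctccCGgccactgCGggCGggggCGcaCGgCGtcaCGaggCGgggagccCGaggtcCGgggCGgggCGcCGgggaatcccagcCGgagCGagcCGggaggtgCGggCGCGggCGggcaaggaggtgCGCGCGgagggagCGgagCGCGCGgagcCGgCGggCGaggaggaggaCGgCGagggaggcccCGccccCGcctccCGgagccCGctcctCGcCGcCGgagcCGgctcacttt

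Kcns1 (chr2:164163619-164171113, minus strand), also a silent subunit of Kcnb channels known from sensory neurons, moved the other way. It had 1.38, 2.21, 3.36, 1.38 and 2.36 CPM in Rg1 plus LPS, 0.834, 0.895, 1.57, 0.847 and 0.752 CPM in LPS and 1.96, 2.25, 2.22, 2.43 and 1.65 CPM in control libraries. The LPS libraries lay below all control libraries, and only LPS replicate 3 reached into the range of Rg1 plus LPS. Kcns1 was higher in Rg1 plus LPS than in LPS by 1.13 ± 0.27 (adjusted p = 0.00251). It was lower in LPS than in control by -1.11 ± 0.27 (adjusted p = 0.00643). Rg1 plus LPS against control gave 0.03 ± 0.26 (adjusted p = 0.949). The remaining silent subunits tested, Kcng4 and Kcns3, changed in no comparison.

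**Figure D3:**
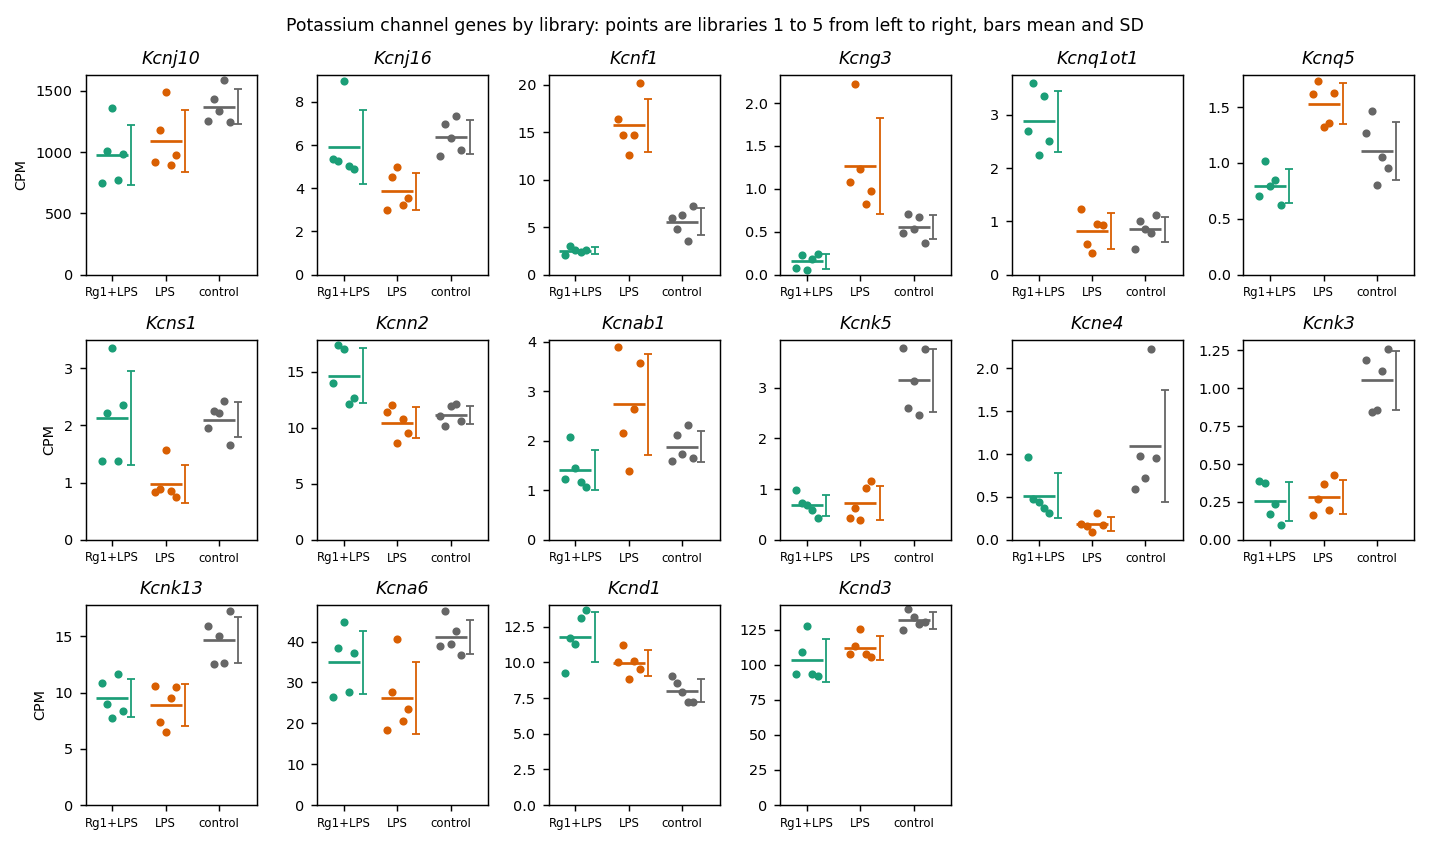
CPM of the 16 potassium channel genes described by library, each panel on its own axis from 0. Points are libraries 1 to 5 of Rg1 plus LPS, LPS and control from left to right, and bars give mean and SD. For Kcnq1ot1 all 5 Rg1 plus LPS libraries lie above the rest, for Kcnf1 and Kcng3 all 5 LPS libraries do, and for Kcnk3, Kcnk5 and Kcnk13 all 5 control libraries do.

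Among the pore-forming voltage-gated channels, the A-type channels of the Kcnd family open briefly below the firing threshold and assemble with Kcnip subunits. Kcnd3 (chr3:105452330-105674002, plus strand) was the most abundant voltage-gated channel, with 93.5, 109, 128, 93.3 and 92.2 CPM in Rg1 plus LPS, 107, 114, 126, 108 and 105 CPM in LPS and 125, 140, 134, 129 and 131 CPM in control libraries. Replicate 3 of Rg1 plus LPS and of LPS again lay within the control range, with the other treated libraries below it. Kcnd3 was lower in Rg1 plus LPS than in control by -0.35 ± 0.08 (adjusted p = 0.00384). LPS against control missed the threshold at -0.23 ± 0.08 (adjusted p = 0.0536), but passed in 7 of 9 other settings, DESeq2 (adjusted p = 0.038) and voom (adjusted p = 0.0488) among them, and in 5 of 15 leave-one-out fits. The call for Rg1 plus LPS against control was lost when a trend of fold change with gene length was removed from each library (adjusted p = 0.156). An antisense gene, Kcnd3os, overlaps Kcnd3, and the strand setting of the counts is not given in the sources used here, so their reads cannot be told apart.

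Kcnd1 (chrX:7822289-7838280, plus strand) had 9.25, 11.7, 11.3, 13.1 and 13.7 CPM in Rg1 plus LPS, 10.0, 11.3, 8.82, 10.1 and 9.57 CPM in LPS and 9.02, 8.59, 7.96, 7.23 and 7.20 CPM in control libraries. The Rg1 plus LPS libraries all lay above control, and LPS overlapped with both. The rise against control was 0.56 ± 0.11 (log2, adjusted p = 0.000943), beside 0.25 ± 0.11 for Rg1 plus LPS against LPS (adjusted p = 0.0793) and 0.32 ± 0.11 for LPS against control (adjusted p = 0.0502). Rg1 plus LPS against LPS passed in 3 of 9 other settings (library size alone, upper quartile scaling and the length offset, adjusted p from 0.00456) and without Rg1 plus LPS replicate 1 (0.32, adjusted p = 0.0151). LPS against control passed in 2 of 9, DESeq2 and a fit of the groups compared alone (adjusted p = 0.0316 and 0.0301), and in 4 of 15 leave-one-out fits, those without replicate 1 or 5 of Rg1 plus LPS, 3 of LPS or 1 of control. Kcnd2, the A-type channel of neuronal dendrites, was lower in Rg1 plus LPS, at 1.85 ± 0.757 CPM, than in LPS, at 3.39 ± 0.720 CPM, and in control, at 3.40 ± 0.662 CPM (SD, n = 5 each). Its log2 fold change was -0.87 ± 0.25 against LPS (adjusted p = 0.00935) and -0.88 ± 0.25 against control (adjusted p = 0.0116). Relative to control, Rg1 plus LPS thus had more Kcnd1 and less Kcnd2 and Kcnd3.

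Kcna6 (chr6:126708329-126740674, minus strand), a Shaker-type delayed rectifier and the second most abundant voltage-gated gene, had 26.5, 38.3, 44.8, 27.7 and 37.3 CPM in Rg1 plus LPS, 18.4, 27.7, 40.6, 20.6 and 23.4 CPM in LPS and 39.0, 47.5, 39.4, 42.6 and 36.7 CPM in control libraries. All groups overlapped, LPS and control only through LPS replicate 3. Kcna6 fell in LPS against control by 0.65 on the log2 scale (SE 0.19, adjusted p = 0.0212), and the fall missed the threshold without LPS replicate 1, 4 or 5 (adjusted p = 0.0557, 0.056 and 0.0511) or control replicate 2 (0.054). Rg1 plus LPS against LPS gave 0.42 ± 0.19 (adjusted p = 0.0859), which passed without LPS replicate 3 (0.64, adjusted p = 0.00297) or Rg1 plus LPS replicate 1 (0.50, adjusted p = 0.0435). It also passed in 4 of 9 other settings, namely voom, library size alone, upper quartile scaling and the length offset (adjusted p from 0.0172 to 0.0499). Rg1 plus LPS against control gave -0.23 ± 0.19 (adjusted p = 0.357).

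Kcnq5 (chr1:21398403-21961942, minus strand), a subunit of the slow M-type current, had 0.701, 1.02, 0.791, 0.851 and 0.620 CPM in Rg1 plus LPS, 1.61, 1.74, 1.32, 1.35 and 1.63 CPM in LPS and 1.27, 1.46, 0.801, 1.05 and 0.953 CPM in control libraries. Rg1 plus LPS and LPS were fully separate, and control lay across both. The log2 fold change was -0.94 ± 0.21 for Rg1 plus LPS against LPS (adjusted p = 0.00152), 0.47 ± 0.20 for LPS against control (adjusted p = 0.11) and -0.48 ± 0.21 for Rg1 plus LPS against control (adjusted p = 0.0859).

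Further voltage-gated genes passed in a single comparison, and each of these calls was lost without at least 3 of the 15 libraries in turn. Lower in Rg1 plus LPS than in LPS was the A-type channel Kcna4 (-0.91 ± 0.33, adjusted p = 0.0312), lost without replicate 1, 4 or 5 of Rg1 plus LPS or 2 of LPS (adjusted p up to 0.106). So was the fast channel Kcnc2 (-0.49 ± 0.18, adjusted p = 0.0384), lost without replicate 2, 3 or 5 of Rg1 plus LPS or 1, 4 or 5 of LPS (adjusted p up to 0.126). So too was Kcnh5 of the ether-à-go-go group (-0.57 ± 0.19, adjusted p = 0.0215), lost without replicate 2 or 4 of Rg1 plus LPS or 2 or 5 of LPS (adjusted p up to 0.0604). Lower in LPS than in control was the fast channel Kcnc4 (-1.53 ± 0.44, adjusted p = 0.019), lost without replicate 1 of LPS or 1 or 3 of control (adjusted p up to 0.0541). Kcnh2, the channel that repolarises the heart, was also lower in LPS than in control (-0.64 ± 0.22, adjusted p = 0.0449), lost without replicate 1, 2, 3 or 5 of LPS or 1, 2, 4 or 5 of control (adjusted p up to 0.0994). Lower in Rg1 plus LPS than in control was the delayed rectifier Kcna1 (-1.10 ± 0.39, adjusted p = 0.0357), lost without replicate 4 or 5 of Rg1 plus LPS or 2, 3 or 4 of control (adjusted p up to 0.107). Some of these calls were also lost in settings other than leaving out 1 library. These were 7 of 11 for Kcna4 (adjusted p up to 0.113), 6 of 12 for Kcnc2 (up to 0.298) and 4 of 12 for Kcnh5 (up to 0.153). They were 3 of 11 for Kcna1 (up to 0.0814), 2 of 12 for Kcnh2 (up to 0.108) and 0 of 11 for Kcnc4.

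Voltage-gated genes that changed in no comparison included Kcna2, Kcna5, Kcnc1, Kcng4, Kcnh1, Kcnq3 and Kcns3, with mean levels between 0.174 CPM for Kcna5 and 6.38 CPM for Kcnc1. Kcna5, a delayed rectifier, had the widest fold changes among them, 1.72 ± 0.75 for Rg1 plus LPS against LPS (adjusted p = 0.0704) and -2.04 ± 0.74 for LPS against control (adjusted p = 0.0549), at levels of 0.205 ± 0.162 CPM in Rg1 plus LPS, 0.0598 ± 0.0516 CPM in LPS and 0.258 ± 0.105 CPM in control libraries. In LPS that is under the level of 3 counts per library. Of all 24 voltage-gated genes tested, 2 were higher and 7 lower in Rg1 plus LPS than in LPS, 2 higher and 4 lower in LPS than in control, and 2 higher and 5 lower in Rg1 plus LPS than in control. Of all genes tested, 22.2% were higher and 23.2% lower in the first comparison, 13.8% and 9.82% in the second and 18.8% and 18.1% in the last.

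Of the channels opened by internal ions, Kcnn2 (chr18:45268860-45686024, plus strand), a small-conductance calcium-activated channel, was the most abundant. It had 14.0, 17.4, 17.0, 12.1 and 12.6 CPM in Rg1 plus LPS, 11.4, 12.0, 8.60, 10.8 and 9.52 CPM in LPS and 11.1, 10.2, 11.9, 12.1 and 10.6 CPM in control libraries. The lowest Rg1 plus LPS library lay just above the highest of the others, and LPS and control overlapped. Kcnn2 rose by 0.48 ± 0.12 in Rg1 plus LPS against LPS (adjusted p = 0.00312) and by 0.39 ± 0.12 against control (adjusted p = 0.0159). LPS against control gave -0.09 ± 0.12 (adjusted p = 0.601).

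Kcnn3, of the same subfamily, was lower in Rg1 plus LPS, at 3.83 ± 1.07 CPM, than in control, at 6.52 ± 1.71 CPM (-0.76 ± 0.26, adjusted p = 0.0292). That call was lost without replicate 1, 2 or 4 of Rg1 plus LPS or replicate 2 of control (adjusted p up to 0.0916), and with the length offset (adjusted p = 0.0954). The sodium-activated channel Kcnt1 was higher in Rg1 plus LPS, at 0.367 ± 0.188 CPM, than in LPS, at 0.123 ± 0.0916 CPM (1.57 ± 0.62, adjusted p = 0.0488). It lost the call in 10 of 15 leave-one-out fits, all except those without replicate 2 of Rg1 plus LPS, replicate 3 of LPS or replicate 2, 4 or 5 of control (adjusted p up to 0.116). The call was also lost in 4 of 10 other settings, DESeq2 among them (adjusted p up to 0.0781). Kcnma1, the large-conductance calcium-activated channel, was low at 0.226 ± 0.135 CPM in Rg1 plus LPS, 0.349 ± 0.0909 CPM in LPS and 0.318 ± 0.110 CPM in control libraries and changed in no comparison. Nor did Kcnn1, Kcnn4 or Kcnt2. None of the 7 genes of this class changed between LPS and control in edgeR, in DESeq2 or at an unadjusted p under 0.05 (0 of 7 each). Of all 15362 genes tested, 3635 (23.7%) changed in edgeR and 4198 in DESeq2, and the difference from these shares was not tested.

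Among the auxiliary subunits, Kcne4 (chr1:78816758-78820028, plus strand), which inhibits several voltage-gated channels, had 0.966, 0.472, 0.445, 0.373 and 0.310 CPM in Rg1 plus LPS, 0.188, 0.163, 0.0922, 0.310 and 0.175 CPM in LPS and 0.594, 0.976, 0.721, 2.22 and 0.953 CPM in control libraries. The LPS libraries lay below all control libraries, with Rg1 plus LPS between and touching both. Kcne4 was lower in LPS than in control by -2.53 ± 0.44 (adjusted p = 0.000497), a call held in all settings. It was higher in Rg1 plus LPS than in LPS by 1.45 ± 0.45 (adjusted p = 0.0157), lost without Rg1 plus LPS replicate 1 (1.09, adjusted p = 0.0529) and without LPS replicates 2 and 3 together (adjusted p = 0.0901). Against control, Rg1 plus LPS gave -1.08 ± 0.40 (adjusted p = 0.0411), lost in 10 of 15 leave-one-out fits, all except those without replicate 1 of Rg1 plus LPS, 3 or 4 of LPS or 1 or 3 of control, and moved to -0.65 without control replicate 4 (adjusted p = 0.181). It was also lost in 6 of 11 other settings, a replicate block among them (adjusted p up to 0.0633).

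Kcnab1 (chr3:65109384-65378223, plus strand), a cytoplasmic beta subunit that speeds the inactivation of Kcna channels, had 1.23, 2.08, 1.46, 1.17 and 1.07 CPM in Rg1 plus LPS, 3.90, 2.17, 1.38, 2.65 and 3.58 CPM in LPS and 1.60, 2.11, 1.74, 2.31 and 1.65 CPM in control libraries. The groups overlapped, LPS replicates 1, 4 and 5 standing above all libraries of the other groups. Kcnab1 was lower in Rg1 plus LPS than in LPS by -0.96 ± 0.26 (adjusted p = 0.0063). The difference was 0.54 ± 0.26 for LPS against control (adjusted p = 0.138) and -0.42 ± 0.26 in Rg1 plus LPS against control (adjusted p = 0.222). Without LPS replicate 3 the rise in LPS against control passed (0.70, adjusted p = 0.0306).

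Kcnip1, a calcium-binding subunit of the Kcnd channels, was higher in Rg1 plus LPS, at 9.43 ± 2.21 CPM, than in LPS, at 6.66 ± 1.54 CPM, and in control, at 5.75 ± 1.24 CPM. The log2 fold change was 0.71 ± 0.19 against control (adjusted p = 0.0086) and 0.50 ± 0.19 against LPS (adjusted p = 0.0429). The call against LPS was lost without replicate 1 or 4 of Rg1 plus LPS or replicate 2, 3 or 5 of LPS (adjusted p up to 0.0989). It was also lost with no filter on low counts, in a fit of the groups compared alone and without LPS replicates 2 and 3 (adjusted p up to 0.256). Kcnmb1 lies on the other strand within Kcnip1, so that their reads cannot be told apart without the strand. Kcne1l, an inhibitory subunit of Kcnq1 and the most abundant auxiliary gene, had 27.8 ± 7.54 CPM in Rg1 plus LPS, 18.3 ± 6.73 CPM in LPS and 27.4 ± 2.05 CPM in control libraries. It was higher in Rg1 plus LPS than in LPS by 0.61 ± 0.22 (adjusted p = 0.0308). That call was lost without replicate 2, 3 or 5 of Rg1 plus LPS or replicate 1, 4 or 5 of LPS (adjusted p up to 0.0793). It was also lost in 3 of 12 other settings (adjusted p up to 0.0714). The 7 auxiliary genes changed in no comparison were Kcnab2, Kcnab3, Kcnip3, Kcnip4, Kcnmb1, Kcnmb3 and Kcnmb4, with mean levels between 0.175 CPM for Kcnmb3 and 10.2 CPM for Kcnab2.

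Kcnq1ot1 (chr7:143203458-143296549, minus strand) is no channel gene but a long noncoding RNA antisense to Kcnq1, transcribed from the paternal chromosome, where it silences its neighbours. It had 2.71, 3.60, 2.25, 3.35 and 2.50 CPM in Rg1 plus LPS, 1.24, 0.569, 0.399, 0.960 and 0.927 CPM in LPS and 0.491, 1.00, 0.855, 0.790 and 1.12 CPM in control libraries. Every Rg1 plus LPS library lay above all others, and LPS and control overlapped. Kcnq1ot1 rose by 1.81 ± 0.28 against LPS (adjusted p = 7.36e-05) and by 1.76 ± 0.28 against control (adjusted p = 0.000154). LPS against control gave -0.05 ± 0.29 (adjusted p = 0.919). Kcnq1 itself, on the other strand, had 21 counts over all 15 libraries and was not tested. The long noncoding RNAs Kcnmb4os1 and Kcnmb4os2, which overlap Kcnmb4, had too few counts.

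Genes of potassium handling that lie outside the Kcn symbols were counted in 3 lists. Of all genes tested, 22.2% were higher and 23.2% lower in Rg1 plus LPS than in LPS. The shares were 13.8% and 9.82% in LPS against control and 18.8% and 18.1% in Rg1 plus LPS against control. The median log2 fold changes of all genes were 0.03, -0.003 and 0.01. No list was tested against these shares. Of 12 partner subunits and related cation channels tested, 4 were higher and 2 lower in Rg1 plus LPS than in LPS, 2 were higher and none lower in LPS than in control (1 lower at an unadjusted p under 0.05 and 0 in DESeq2), and 3 were higher and 1 lower in Rg1 plus LPS than in control, with median log2 fold changes of 0.14, 0.12 and 0.11. Hcn4, a pacemaker channel opened by hyperpolarisation, averaged 0.0751 ± 0.0531 CPM in Rg1 plus LPS, 2.81 ± 1.59 CPM in LPS and 0.338 ± 0.166 CPM in control libraries. It thus had the order of Kcnf1 and Kcng3, with log2 fold changes of -5.17 ± 0.50 in Rg1 plus LPS against LPS (adjusted p = 5.02e-07), 3.04 ± 0.42 in LPS against control (adjusted p = 4.78e-05) and -2.12 ± 0.56 in Rg1 plus LPS against control (adjusted p = 0.00699). Its mean in Rg1 plus LPS was at the level of 3 counts per library. Lrrc38, an auxiliary subunit of the large-conductance channel, rose in Rg1 plus LPS against LPS (1.81 ± 0.37, adjusted p = 0.000876) and against control (1.83 ± 0.37, adjusted p = 0.0012). Amigo1, a partner of Kcnb channels, rose by 0.30 ± 0.09 and 0.25 ± 0.09 in the same comparisons, and Tmem38a, a potassium-permeable channel of the endoplasmic reticulum, by 0.26 ± 0.06 and 0.17 ± 0.06. The lysosomal potassium channel Tmem175 rose by 0.20 ± 0.07 against LPS, where the cyclic nucleotide-gated subunit Cngb1 changed by -0.87 ± 0.30.

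Of 16 pumps and cotransporters tested, 3 were higher and 3 lower in Rg1 plus LPS than in LPS, none higher and 4 lower in LPS than in control, and none higher and 2 lower in Rg1 plus LPS than in control, with 0 higher than control also at an unadjusted p under 0.05 and in DESeq2. In the same order, 22.2% of all genes tested were higher and 23.2% lower, 13.8% and 9.82%, and 18.8% and 18.1%. The median log2 fold changes of the list were 0.11, -0.16 and -0.11, beside 0.03, -0.003 and 0.01 for all genes. The regulators of the sodium pump Fxyd1 and Fxyd6 fell in LPS against control (-0.91 ± 0.23, adjusted p = 0.0094, and -1.06 ± 0.22, adjusted p = 0.00222) and rose in Rg1 plus LPS against LPS (0.96 ± 0.23, adjusted p = 0.00306, and 0.82 ± 0.22, adjusted p = 0.00628). Atp1b1, a beta subunit of the sodium pump, fell slightly in LPS against control (-0.31 ± 0.09). Slc12a2, the cotransporter that brings sodium, potassium and chloride into the cell, fell in Rg1 plus LPS against LPS (-0.70 ± 0.09, adjusted p = 1.46e-05) and against control (-0.57 ± 0.09, adjusted p = 0.000165).

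Of 18 anchors and regulators tested, 3 were higher and 7 lower in Rg1 plus LPS than in LPS, 3 higher and 3 lower in LPS than in control, and none higher (1 at an unadjusted p under 0.05 and 0 in DESeq2) and 7 lower in Rg1 plus LPS than in control. Among all genes tested the shares higher and lower were 22.2% and 23.2%, 13.8% and 9.82%, and 18.8% and 18.1%. The median log2 fold changes of the list were -0.15, -0.04 and -0.13, beside 0.03, -0.003 and 0.01 for all genes. Dag1, the dystroglycan of the dystrophin complex at astrocyte endfeet, fell in Rg1 plus LPS against LPS (-0.37 ± 0.05, adjusted p = 2.22e-05) and against control (-0.38 ± 0.05, adjusted p = 3.73e-05). So did the scaffold Dlg1 (-0.28 ± 0.06 and -0.26 ± 0.06) and the kinase Wnk1, which controls the Slc12a cotransporters (-0.36 ± 0.06 and -0.21 ± 0.06). Wnk3 rose in LPS against control (0.81 ± 0.14) and fell in Rg1 plus LPS against LPS (-0.82 ± 0.14), and Oxsr1 and Dlg4 had the same pattern with smaller values. Wnk4 (0.69 ± 0.24) and Cntnap2 (0.31 ± 0.10) rose in Rg1 plus LPS against LPS. Sgk1, a steroid-induced kinase that acts on many channels, fell in LPS against control (-1.46 ± 0.23, adjusted p = 0.000274) and in Rg1 plus LPS against control (-1.21 ± 0.23, adjusted p = 0.000862). Hepacam, an adhesion molecule of astrocytes, fell by 0.39 on the log2 scale in LPS against control (SE 0.11), and Stk39 fell in Rg1 plus LPS against control (-0.38 ± 0.09).

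**Figure D4:**
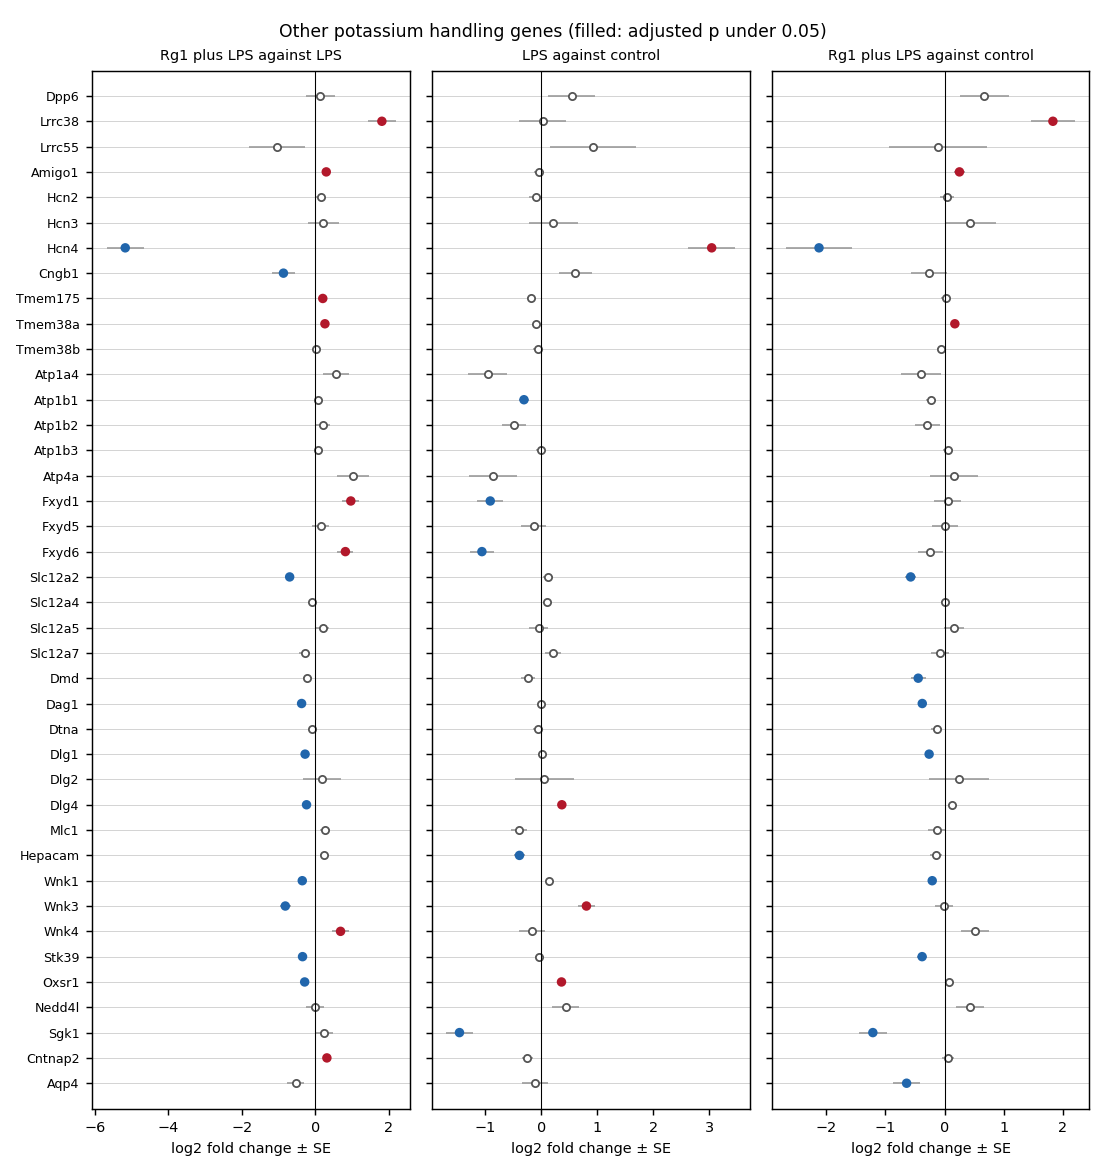
Log2 fold changes with SE of 40 tested genes of potassium handling outside the Kcn symbols, for Rg1 plus LPS against LPS, LPS against control and Rg1 plus LPS against control. Filled points mark an adjusted p under 0.05 in edgeR. Hcn4 has the widest values, at -5.17 for Rg1 plus LPS against LPS and 3.04 for LPS against control, while most other genes lie close to 0.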

How the data were processed

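The protocols in the labels give TRIzol extraction, the VAHTS Universal V6 library kit and sequencing by OE Biotech. GRCm38 and mm10 are the builds in the submitters' processing notes; which aligner, counter, annotation and strand setting were used is not given in the sources used here. The authors deposited both raw counts and FPKM values by gene symbol, the FPKM of the members equalling count over length and total to within a relative deviation of 6.84e-14. In each deposited FPKM file 37 rows had damaged symbols, none of them a member.

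Counts of 15362 genes that passed filterByExpr were fitted in R 4.3.3 with edgeR 4.0.16 (TMM scaling, robust quasi-likelihood, group as the only term, all 15 libraries) and compared by two-sided F-tests with Benjamini-Hochberg adjustment over all genes tested. The SE is the fold change over the root of F. CPM are per M of TMM-scaled filtered totals. Alternatives were DESeq2 1.42.0, limma 3.58.1 voom, other scalings and filters, a gene length offset (loess, span 0.3), a replicate block and leaving out each library. The fit was tested on simulated data, with changed genes drawn from all genes fitted. It recovered 68 to 72 of 100 genes changed 2-fold and 49 to 51 of 100 changed 1.5-fold. A gene not called may therefore still have changed. Values of every library are given for Kcnj10, Kcnj16 and, per comparison, the 8 changed members with the smallest adjusted p at a mean of 0.5 CPM or more. Some genes that enter the counts are not reported here. The members and lists were chosen with earlier results of these data known. The treatment field of the group with Rg1 runs from Rg1 to Rg5, while titles and design text give replicates of Rg1, which were followed. Coordinates are from GENCODE M21 and upstream sequences from RefSeq, GRCm38.p6. A floor of 3 counts covers counting error alone, as reads may be PCR copies.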

Additional observations from a re-analysis of the deposited data

Results flagged for a closer look

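In 48 groups of 5 libraries (16 genes in 3 groups), 4 had a library far from the other 4 of its group, where chance alone flags about 1 in 20. Kcnj16 was at 8.97 CPM in Rg1 plus LPS replicate 3, the next library being at 5.36 CPM. Kcns1 was at 1.57 CPM in LPS replicate 3, with the next at 0.895 CPM. Kcne4 was at 0.966 CPM in Rg1 plus LPS replicate 1, with the next at 0.472 CPM, and at 2.22 CPM in control replicate 4, with the next at 0.976 CPM.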

How the results depend on the processing

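The numbers of channel genes called in Rg1 plus LPS against LPS, LPS against control and Rg1 plus LPS against control were 19, 11 and 17. With replicate number as a block they were 21, 15 and 18. Same-number correlations ran from 0.0499 to 0.424, -0.222 to 0.155 and -0.218 to 0.136. Replicates 3, 4 and 5 of Rg1 plus LPS correlated more with the LPS library of their number (0.423, 0.366 and 0.424) than with any other LPS library (at most 0.263, 0.108 and 0.141). Replicates 1 and 2 did not. The labels name no pairs, and if numbers pair libraries of these 2 groups was not tested. Under the block, LPS against control was called for Kcnj10 (adjusted p = 0.044) and Kcnd3 (0.0106), Rg1 plus LPS against LPS was called for Kcna6 (0.0179), and Rg1 plus LPS against control was not called for Kcne4 (0.0555). Leaving out each library in turn gave 14 to 20 (7 to 12 higher, 6 to 11 lower), 8 to 19 (1 to 5 higher, 6 to 14 lower) and 13 to 18 (5 to 7 higher, 7 to 13 lower). The count for LPS against control was 19 (5 higher, 14 lower) without LPS replicate 3, and genes higher numbered 1 without LPS replicate 2, control replicate 3 or control replicate 5, and 4 without control replicate 1. In Rg1 plus LPS against control, 7 were lower without Rg1 plus LPS replicate 4 or control replicate 2.

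Without LPS replicates 2 and 3, an alternative chosen after seeing the data, LPS against control had 19 calls, 16 of them lower. LPS against control was then also called for Kcnj10 (adjusted p = 0.0185), Kcnd3 (0.031) and Kcnab1 (0.014), and not for Kcng3 (0.137). Rg1 plus LPS against LPS was then called for Kcna6 (0.0019) and not for Kcne4 (0.0901). At a filter of 1 CPM in 5 libraries, 1 gene was higher in LPS than in control, Kcng3 not being tested. The gene length offset gave 9 higher and 7 lower for Rg1 plus LPS against control. With the block as well it gave 5 lower for Rg1 plus LPS against LPS, 14 lower for LPS against control and 8 higher for Rg1 plus LPS against control. The cause was not tested.

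Signs turned only for differences that were not called. For Rg1 plus LPS against LPS, the length offset gave 0.037 for Kcnj10, 0.014 for Kcnk5 and 0.10 for Kcnd3, and with the block 0.036, 0.043 and 0.10. Upper quartile scaling gave 0.042 for Kcnk5 and 0.022 for Kcnd3, and library size alone 0.021 for Kcnk5. Without LPS replicates 2 and 3, Kcnj10 was at 0.061 and Kcnk13 at -0.11. Leaving out 1 library gave -0.26 to 0.15 for Kcnk5 and -0.37 to 0.062 for Kcnk3. For LPS against control, Kcnq1ot1 was at 0.080 with the length offset, 0.038 with the block too, 0.29 without LPS replicates 2 and 3, and -0.24 to 0.11 without 1 library, above 0 without control replicate 2 or 5 or LPS replicate 2 or 3. For Rg1 plus LPS against control, Kcns1 was at -0.041 with voom, -0.036 with the block and -0.035 with block and length offset, and at -0.19 to 0.15 without 1 library, below 0 without control replicate 5 or Rg1 plus LPS replicate 3.

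Counts of a few per library limit the genes near 0.1 CPM, above all Kcna5, Kcng3, Kcnmb3 and Kcnt1.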
